A study of Mus musculus with 8 samples.

Results

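The genes described here are 31 genes of cholesterol and fatty acid synthesis, taken by symbol from a table of 52459 gene symbols. They fall into a sterol arm of 18 enzymes, 6 regulators of the SREBP system and a fatty acid arm of 7 enzymes. All 31 were among the 14085 genes with enough counts to be tested.

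Cholesterol is built from acetyl-CoA through mevalonate, farnesyl diphosphate, squalene and lanosterol. Fatty acids are built from the same acetyl-CoA through malonyl-CoA, and are then lengthened and desaturated. Transcription of both routes is driven by the SREBP proteins, which are held in the endoplasmic reticulum by Insig proteins while sterol is plentiful and are carried to the Golgi by Scap when it is not. In the lung, alveolar type 2 cells use these routes to supply the lipid of surfactant.

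RNA was sequenced from frozen lung tumour nodules of mice of the KrasTrp53 model, a genetically engineered model of lung cancer, kept on a mixed background. The combination group received JQ1, an inhibitor of bromodomain proteins, together with an antibody against PD-1, a checkpoint receptor of T cells. The JQ1 group received JQ1 alone, the anti-PD-1 group the antibody alone, and the vehicle group neither agent. Each of the 4 groups has 2 libraries, and every group, vehicle included, carries the KrasTrp53 alleles. No label states the Cre or promoter that starts the tumours, nor doses, durations or ages. Probes captured coding regions, so a level also depends on how well a gene's probes work.

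Total counts were 2719816 and 9034331 in the combination libraries, 8977259 and 9789137 in the JQ1 libraries, 12998173 and 10318833 in the anti-PD-1 libraries, and 12615865 and 15224108 in the vehicle libraries. Combination replicate 1 was the shallowest, and the median sterol enzyme had 13.5 counts in it. Ribosomal RNA symbols took 50.0% ± 4.70 of counts in the combination, 32.3% ± 5.11 in JQ1, 24.5% ± 0.484 in anti-PD-1 and 23.5% ± 1.38 in vehicle (SD, n = 2 each). With these symbols removed, 2 members were called in the combination against vehicle (2 with them), 4 against the antibody (5 with them) and 2 for JQ1 over both backgrounds (2 with them). By Xist and Y-linked counts 3 libraries were female, 1 each in the combination, JQ1 and anti-PD-1 groups, and both vehicle libraries were male. In the combination, JQ1 and anti-PD-1 groups the 2 libraries differ in sex and so come from different animals. The labels do not say whether the vehicle libraries do. The p-values measure the spread between these libraries, part of which may be technical. Alveolar type 2 markers were abundant in every library, between 6599 and 12283 summed CPM (reads counted for a gene, scaled by library total and TMM factor). Adipocyte markers summed to between 4.66 and 16.3 CPM, with Lipe supplying between 71.0% and 95.1% of the sum in a library and Adipoq, Lep, Retn, Cfd and Pck1 at 0 counts in all 8 libraries.

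Per kilobase of exon, Scd1, the main stearoyl-CoA desaturase, stood highest at 190.5 CPM per kilobase over the 8 libraries. Exon length here joins all annotated exons of a gene, coding or not, while the probes captured coding regions. The order between genes is therefore approximate. Acly, which makes cytosolic acetyl-CoA from citrate, followed at 73.4, Scd2 at 52.7 and Fasn, the fatty acid synthase, at 49.9 CPM per kilobase. The regulators Srebf1 and Srebf2 stood at 24.4 and 17.8 CPM per kilobase. Among sterol enzymes Pmvk at 16.8 and Hmgcs1 at 10.4 CPM per kilobase stood apart, and the other 16 lay between 0.311 and 3.14. The fatty acid arm therefore held between 74.1% and 87.2% of all counts on the 31 genes in a library, and Scd1 alone between 11.6% and 43.7%.

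Promoter sequences were matched for 25 of the 31 genes in RefSeq windows on GRCm38.p6, each 250 bases before to 50 after a gene's start. No window was used for Fdps, Fdft1, Sqle, Stard4, Scd1 and Scd2. The stretches below are shown because Msmo1, Hsd17b7 and Insig1 are the members past the test with NF-Y boxes in their windows, and because Hmgcs1 holds the one sterol regulatory element found. Each reads 5′ to 3′ on the gene's strand and ends at the last base before the RefSeq start. Capitals mark the NF-Y box CCAAT (or ATTGG on the other strand), the E-box CACGTG and, in Hmgcs1, the sterol regulatory element TCACNCCAC. By gene bounds in the GENCODE annotation, the whole Msmo1 stretch, NF-Y boxes included, lies inside the gene. The bounds reach into part of the Hsd17b7 and Insig1 stretches. In the order printed, the stretches lie at chr13:119690109-119690350 (plus strand), chr8:64733579-64733743 (minus), chr1:169969206-169969375 (minus) and chr5:28071191-28071411 (plus).
Hmgcs1: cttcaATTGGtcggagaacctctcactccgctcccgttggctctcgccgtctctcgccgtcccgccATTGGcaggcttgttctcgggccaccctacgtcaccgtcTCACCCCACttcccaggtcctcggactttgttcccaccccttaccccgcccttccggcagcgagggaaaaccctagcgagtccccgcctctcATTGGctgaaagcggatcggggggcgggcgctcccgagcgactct
Msmo1: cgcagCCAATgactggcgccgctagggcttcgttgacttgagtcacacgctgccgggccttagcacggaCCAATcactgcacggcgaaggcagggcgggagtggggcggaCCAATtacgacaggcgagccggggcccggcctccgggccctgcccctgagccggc
Hsd17b7: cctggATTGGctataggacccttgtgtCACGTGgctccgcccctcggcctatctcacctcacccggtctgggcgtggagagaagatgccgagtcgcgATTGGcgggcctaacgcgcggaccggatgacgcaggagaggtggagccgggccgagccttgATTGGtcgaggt
Insig1: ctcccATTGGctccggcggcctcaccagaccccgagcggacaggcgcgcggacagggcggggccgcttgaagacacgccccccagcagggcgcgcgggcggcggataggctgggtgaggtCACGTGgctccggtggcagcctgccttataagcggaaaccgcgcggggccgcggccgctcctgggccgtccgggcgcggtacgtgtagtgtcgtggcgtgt

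The letters CCAAT, on either strand, were in a window of 21 of 25 members (84%), against 42.4% of the 9963 tested genes with a window and 41.1% of all 27025 genes in the set. In the sterol arm 14 of 15 genes had them, as did 4 of 5 regulators and 3 of 5 fatty acid genes. TCACNCCAC was in 1 of 25 members (4%), against 1.42% of the tested genes and 1.44% of all genes. CACGTG was in 5 of 25 (20%), against 11.6% and 8.09%, and the Sp1 box GGGCGG was in 21 of 25 (84%), against 68.6% and 38.2%. Both strands were searched, and no motif contains another. Acat2, a further member past the test, had the Sp1 box and none of the other motifs in its window. These matches describe letters and do not show binding.

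The mean summed level of the sterol arm was highest in the combination and lowest under the antibody alone. Its summed level was 172.6 and 274.4 CPM in the combination libraries and 167.7 and 175.2 CPM in the JQ1 libraries. It was 120.9 and 99.1 CPM in the anti-PD-1 libraries and 136.5 and 136.7 CPM in the vehicle libraries. All 4 libraries that received JQ1 lay above all 4 that did not, and both antibody-only libraries lay below both vehicle libraries. In bulk tissue, fewer cells of a type and less RNA per cell cannot be told apart, here and in every result that follows. Pmvk alone supplied between 6.59% and 30.0% of sterol counts in a library, and part of this order rested on it. Without Pmvk, left out after its values were seen, the sum was 137.2 and 199.1 CPM in the combination, 153.9 and 122.6 CPM in JQ1, 112.95 and 77.1 CPM in anti-PD-1, and 121.96 and 127.5 CPM in vehicle. JQ1 replicate 2 then lay between the vehicle libraries, while the combination stayed above vehicle and the antibody alone below it.

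The fatty acid arm did not separate the groups. Its summed level was 3255 and 2707 CPM in the combination libraries, 2838 and 1291 CPM in the JQ1 libraries, 1518 and 2818 CPM in the anti-PD-1 libraries, and 2820 and 2292 CPM in the vehicle libraries. Libraries of JQ1 and of anti-PD-1 differed within their group by more than any of the group means differed. The SREBP regulators summed to 370 ± 91.7 CPM in the combination, 285 ± 13.6 CPM in JQ1, 312 ± 101 CPM in anti-PD-1 and 341 ± 55.9 CPM in vehicle (SD, n = 2 each). Both JQ1 libraries lay below both combination and both vehicle libraries, and the other groups overlapped.

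**Figure D1:**
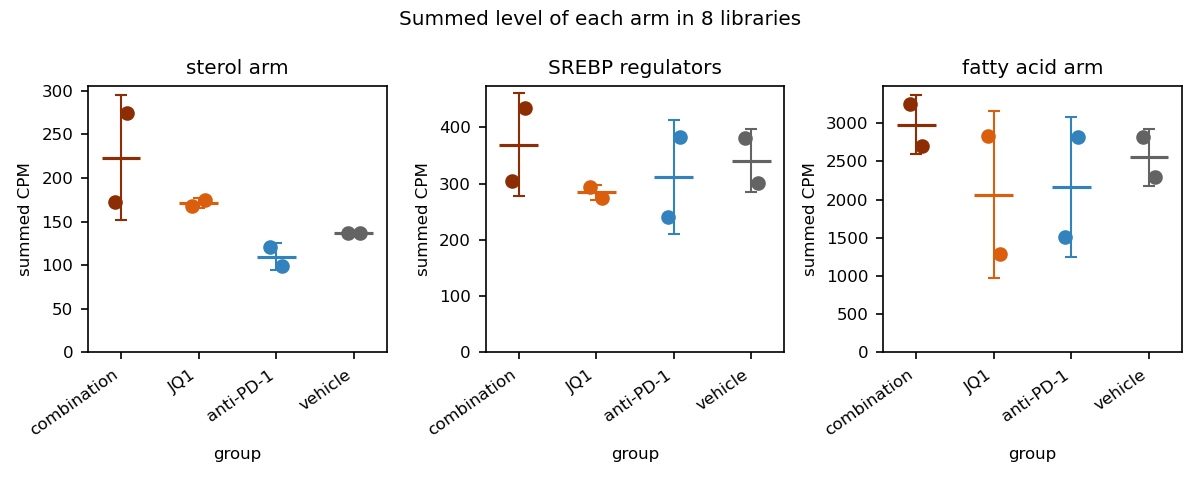
Summed CPM (vertical axes, from 0) of the sterol arm, the SREBP regulators and the fatty acid arm in the combination, JQ1, anti-PD-1 and vehicle groups. Points are libraries, horizontal lines group means and bars SD (n = 2). The 4 sterol sums of the combination and JQ1 libraries lie between 167.7 and 274.4 CPM, above the 99.1 to 136.7 CPM of the others, a separation that does not hold for JQ1 replicate 2 without Pmvk, while the fatty acid sums overlap.

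The combination was tested against vehicle to ask what both agents together did to the nodules. Acat2, a cytosolic thiolase that joins acetyl-CoA units, and Sqle, the squalene epoxidase and a rate-limiting step of the sterol branch, rose, and no member fell. These 2 calls of 31 compare with 2.44% of all tested genes that rose and 2.36% that fell (4.8% in either direction). The median log2 fold change was 0.91 over the sterol arm (15 of 18 positive), 0.48 over the regulators (5 of 6 positive) and 0.49 over the fatty acid arm (4 of 7 positive), against 0.07 over all tested genes. Both combination libraries lay above both vehicle libraries in 12 of 18 sterol genes and below in 2. Over all tested genes the corresponding shares were 29.5% above and 29.1% below. An unadjusted p under 0.05 was reached by 9 of 31 members, against 27.3% of all tested genes. The 2 calls rested on particular libraries: no member was called without combination replicate 2, or without either anti-PD-1 or either vehicle library (all 8 libraries share 1 estimate of spread), and 4 were called without combination replicate 1. With a term for sex, which differs within 3 groups while both vehicle libraries are male, neither call held and no member was called. The sterol median without combination replicate 2 was 0.58, and the fatty acid median was 0.10 without combination replicate 1, 0.27 without combination replicate 2 and -0.24 with a term for sex.

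The combination against the antibody alone asks what JQ1 added in mice that received anti-PD-1. Here 5 members rose, the sterol enzymes Acat2, Sqle, Msmo1 and Hsd17b7 and the regulator Insig1, and none fell, against 2.15% of tested genes that rose and 2.08% that fell (4.23% either way). The sterol arm had a median log2 fold change of 1.44 (17 of 18 positive), the regulators 0.64 and the fatty acid arm 0.28, against 0.05 over all tested genes. The libraries did not overlap in 14 of 18 sterol genes, all with the combination higher, against 27.9% of all tested genes higher and 26.8% lower. An unadjusted p under 0.05 was reached by 15 of 31 members, against 27% of all tested genes. No member was called without combination replicate 2 or without either anti-PD-1 or either vehicle library. With a term for sex, Msmo1 alone was called.

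JQ1 over both backgrounds sets the mean of the combination and JQ1 groups against the mean of the anti-PD-1 and vehicle groups. Msmo1, the sterol C4-methyl oxidase, and Sqle rose, and no member fell, against 4.22% of tested genes that rose and 4.05% that fell (8.28% either way). The sterol arm had a median of 1.03 (15 of 18 positive), the regulators 0.30 and the fatty acid arm 0.25, against 0.06 over all tested genes. In 7 of 31 members all 4 libraries with JQ1 lay above all 4 without it, and in none below, against 10.2% above and 9.35% below over all tested genes. An unadjusted p under 0.05 was reached by 17 of 31 members, against 31.7% of all tested genes. These 7 are Sqle, Tm7sf2, Msmo1, Ebp and Sc5d of the sterol arm, the regulator Stard4 and the desaturase Scd2. Msmo1 alone was called without combination replicate 2 or without anti-PD-1 replicate 1, none was called without anti-PD-1 replicate 2 or either vehicle library, and 7 were called without combination replicate 1. Without JQ1 replicate 1, Msmo1 and Pmvk were called and Sqle was not. The fatty acid median turned to -0.30 without JQ1 replicate 1 and to -0.11 with a term for sex, and was 0.01 without combination replicate 1.

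JQ1 alone against vehicle gave no call in edgeR's test, among the members or among all genes (0%). At an unadjusted p under 0.05 there were 1427 genes in all (10.1%), including 1 member, Msmo1, while DESeq2 called 77 genes and limma voom 0. Of the 18 sterol genes, 13 had a positive log2 fold change, with a median of 0.62 against 0.07 over all tested genes. The fatty acid median was 0.08, and it was -0.70 without JQ1 replicate 1, 0.42 without JQ1 replicate 2 and -0.30 with a term for sex. Both JQ1 libraries lay above both vehicle libraries in 7 of 18 sterol genes and below in 2, against 26.3% and 22.9% of all tested genes.

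The antibody alone against vehicle also gave no call (0%), with 278 genes (1.97%) at an unadjusted p under 0.05, none of them members, while DESeq2 called 9 genes and limma voom 0. The log2 fold change was negative in 16 of 18 sterol genes, 6 of 6 regulators and 6 of 7 fatty acid genes, with medians of -0.34, -0.22 and -0.28. Over all tested genes 7050 of 14085 were negative. Both antibody libraries lay below both vehicle libraries in 11 of 18 sterol genes and above in none, against 16% and 14.4% of all tested genes. Without anti-PD-1 replicate 1 the sterol median was -0.71 and the fatty acid median 0.08, and without anti-PD-1 replicate 2 the fatty acid median was -0.68.

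**Figure D2:**
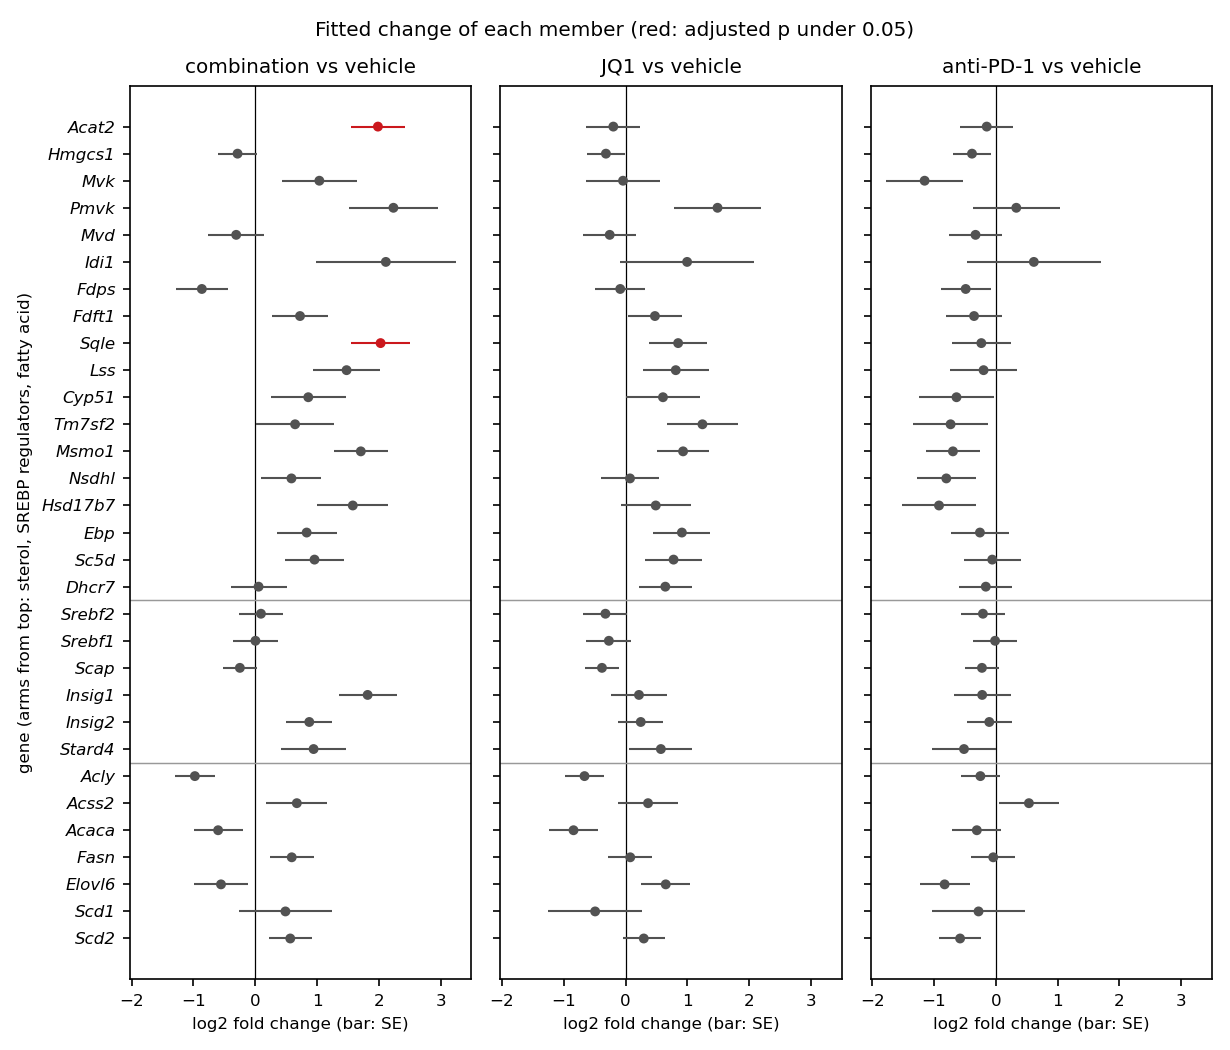
Fitted log2 fold change (horizontal axis, bars SE) of each of the 31 members in the combination, JQ1 and anti-PD-1 groups against vehicle. Red marks an adjusted p under 0.05, reached by Acat2 and Sqle in the combination. Most sterol genes lie right of 0 in the combination and left of 0 under the antibody alone.

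The combination against JQ1 alone asks what the antibody added in mice that received JQ1. No member was called there, against 0.0213% of tested genes, and 4 members had an unadjusted p under 0.05 among 1987 genes (14.1%), while DESeq2 called 410 genes and Acat2 among the members. Both combination libraries lay above both JQ1 libraries in 12 of 31 members and below in 4, against 19.7% and 21.3% of all tested genes. The median was 0.38 over the sterol arm and -0.01 over all tested genes. The sterol median was 0.10 without combination replicate 2 and 0.21 without JQ1 replicate 2. The interaction, which tests whether the effect of JQ1 differed with the antibody, gave no call in edgeR (0%), with 881 genes (6.25%) and 5 members at an unadjusted p under 0.05, while DESeq2 called 16 genes and limma voom 0. The 5 members were Acat2, Mvk, Msmo1, Hsd17b7 and Insig1, with interaction log2 values from 1.47 to 2.33. These comparisons share libraries with the ones above and are not independent of them.

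Early steps of the mevalonate route did not move together. Acat2 (chromosome 17, 12942890 to 12960747, minus strand) was at 8.42 and 16.3 CPM in the combination libraries, 2.94 and 2.62 CPM in the JQ1 libraries, 2.65 and 3.10 CPM in the anti-PD-1 libraries, and 3.21 and 3.16 CPM in the vehicle libraries. Only the combination stood apart, and the other 6 libraries lay within 1 CPM of each other. Acat2 rose by a log2 fold change of 1.99 ± 0.44 (SE) in the combination against vehicle (edgeR adjusted p = 0.0367) and by 2.13 ± 0.44 against the antibody alone (edgeR adjusted p = 0.0369). Against JQ1 alone its log2 fold change was 2.18 ± 0.45 (edgeR adjusted p = 0.122), and its interaction value was 2.33 ± 0.62 (edgeR adjusted p = 0.745). Acat3, its close copy, had 47 counts over the 8 libraries, against 345 for Acat2.

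Hmgcs1, which makes the HMG-CoA that commits carbon to the route, was at 50.1 and 42.5 CPM in the combination, 44.6 and 45.8 CPM in JQ1, 55.3 and 30.7 CPM in anti-PD-1, and 53.4 and 59.2 CPM in vehicle. It was not called in any comparison, and both combination and both JQ1 libraries lay below both vehicle libraries, with log2 fold changes of -0.29 and -0.32. In both comparisons Hmgcs1 was on the opposite side of 0 from most of its arm, as were Mvd and Fdps. Pmvk, the phosphomevalonate kinase, had 35.4 and 75.3 CPM in the combination, 13.8 and 52.6 CPM in JQ1, 7.96 and 22.0 CPM in anti-PD-1, and 14.5 and 9.24 CPM in vehicle. Its replicates differed widely in all groups, and its log2 fold change of 2.24 ± 0.73 in the combination against vehicle was not called (edgeR adjusted p = 0.0997). Pmvk was called when only the combination and vehicle libraries were fitted, a fit in which Acat2 and Sqle were not.

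Mvk, the mevalonate kinase, was low, at 3.79 and 3.30 CPM in the combination, 2.20 and 1.13 CPM in JQ1, 0.768 and 0.751 CPM in anti-PD-1, and 1.15 and 2.24 CPM in vehicle. These levels rest on few reads, with 9 and 20 counts in the combination libraries and 11 and 8 in the anti-PD-1 libraries. The combination was highest and the antibody alone lowest, without overlap with any other group. Its log2 fold change was 2.19 ± 0.65 between them (edgeR adjusted p = 0.0761) and -1.15 ± 0.62 in the antibody against vehicle (edgeR adjusted p = 1). Idi1, the isopentenyl diphosphate isomerase, had 71 counts over all libraries and too few for a firm value. Mvd, the mevalonate diphosphate decarboxylase, averaged between 3.66 and 4.58 CPM in the 4 groups. Fdps, the farnesyl diphosphate synthase, averaged 8.84 ± 3.58 CPM in the combination and 16.6 ± 0.426 CPM in vehicle (SD, n = 2 each). Its log2 fold change of -0.86 in this comparison was not called (edgeR adjusted p = 0.214). Fdps shares 26.7% of its exon bases with Gm43738 on the same strand, and Gm43738 had 1 count over all libraries. No source at hand states how reads in shared bases were counted.

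Of the squalene steps, Sqle was called by the edgeR test and Fdft1 and Lss were not. For JQ1 over both backgrounds, Lss was called in 3 of 16 other settings, which were DESeq2, no filter on low counts and leaving out combination replicate 1. Sqle (chromosome 15, 59315077 to 59331192, plus strand) was at 8.84 and 24.7 CPM in the combination, 8.70 and 6.54 CPM in JQ1, 3.14 and 4.04 CPM in anti-PD-1, and 4.12 and 4.30 CPM in vehicle. Every library with JQ1 lay above every library without it, and combination replicate 2 was far above the rest. Sqle rose by 2.03 ± 0.48 on the log2 scale in the combination against vehicle (edgeR adjusted p = 0.0433), by 2.26 ± 0.49 against the antibody alone (edgeR adjusted p = 0.0395) and by 1.56 ± 0.34 for JQ1 over both backgrounds (edgeR adjusted p = 0.0302). Without combination replicate 2 its log2 fold change against vehicle was 1.04, and it was not called. Lss, which closes squalene epoxide to lanosterol, had 6.31 and 28.2 CPM in the combination, 11.6 and 10.9 CPM in JQ1, 6.08 and 5.07 CPM in anti-PD-1, and 6.57 and 6.25 CPM in vehicle. Combination replicate 1 lay at the vehicle level and replicate 2 stood alone, and the log2 fold change of 1.48 ± 0.55 against vehicle was not called (edgeR adjusted p = 0.123). Fdft1, the squalene synthase, averaged 10.4 ± 1.61 CPM in the combination and 6.36 ± 2.02 CPM in vehicle (SD, n = 2 each). It shares 18.3% of its exon bases with Ctsb on the other strand, and no source at hand states whether counting used strand.

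Past lanosterol, Msmo1 and Hsd17b7 were called. Msmo1 (chromosome 8, 64718139 to 64733792, minus strand) was at 10.9 and 12.03 CPM in the combination, 7.97 and 5.49 CPM in JQ1, 2.79 and 1.502 CPM in anti-PD-1, and 3.36 and 3.67 CPM in vehicle. The 4 groups did not overlap, in the order combination, JQ1, vehicle, anti-PD-1. Msmo1 rose by 1.67 ± 0.31 on the log2 scale for JQ1 over both backgrounds (edgeR adjusted p = 0.0208) and by 2.40 ± 0.45 in the combination against the antibody alone (edgeR adjusted p = 0.0317). Against vehicle, the combination's value of 1.71 ± 0.43 just missed the threshold (edgeR adjusted p = 0.0505), and JQ1 alone gave 0.93 ± 0.42 (edgeR adjusted p = 0.493).

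Hsd17b7, the 3-ketosteroid reductase of the same demethylation (chromosome 1, 169949535 to 169969241, minus strand), was at 3.37 and 6.10 CPM in the combination, 1.68 and 2.88 CPM in JQ1, 1.12 and 0.563 CPM in anti-PD-1, and 1.53 and 1.72 CPM in vehicle. The combination lay above every other library and the antibody alone below every other library. Few reads carry this, with 8 and 37 counts in the combination libraries and 16 and 6 in the anti-PD-1 libraries. Hsd17b7 rose by 2.498 ± 0.61 between these 2 groups (edgeR adjusted p = 0.0486), a call that 7 of the 17 other settings kept. Over both backgrounds its value of 1.49 ± 0.41 just missed (edgeR adjusted p = 0.0521).

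The remaining enzymes after lanosterol were low and not called by the edgeR test. Tm7sf2, a sterol C14 reductase, was at 1.68 and 1.98 CPM in the combination, 3.57 and 2.09 CPM in JQ1, 0.838 and 0.563 CPM in anti-PD-1, and 1.22 and 1.15 CPM in vehicle. Here JQ1 alone was highest, and its log2 fold change of 1.24 ± 0.57 against vehicle was not called (edgeR adjusted p = 0.498). Tm7sf2 shares 12.1% of its exon bases with Vps51 on the same strand, and Vps51 had 3506 counts against its 128. Nsdhl, the C4 decarboxylase, had 5.05 and 5.11 CPM in the combination, 4.61 and 2.53 CPM in JQ1, 2.17 and 1.69 CPM in anti-PD-1, and 3.97 and 2.81 CPM in vehicle. The combination was above vehicle and the antibody below it without overlap, while JQ1 overlapped vehicle. Ebp, the sterol isomerase, and Sc5d, the C5 desaturase, averaged 4.74 ± 0.753 and 6.29 ± 0.0359 CPM in the combination, and 2.7035 ± 0.497 and 3.23 ± 0.185 CPM in vehicle (SD, n = 2 each). Cyp51, the lanosterol demethylase, averaged 8.03 ± 6.59 CPM in the combination and 4.65 ± 1.29 CPM in vehicle. Dhcr7, which makes the final reduction to cholesterol, averaged 4.60 ± 2.34 CPM in the combination, 7.29 ± 0.816 CPM in JQ1, 4.15 ± 0.951 CPM in anti-PD-1 and 4.66 ± 0.427 CPM in vehicle (SD, n = 2 each).

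**Figure D3:**
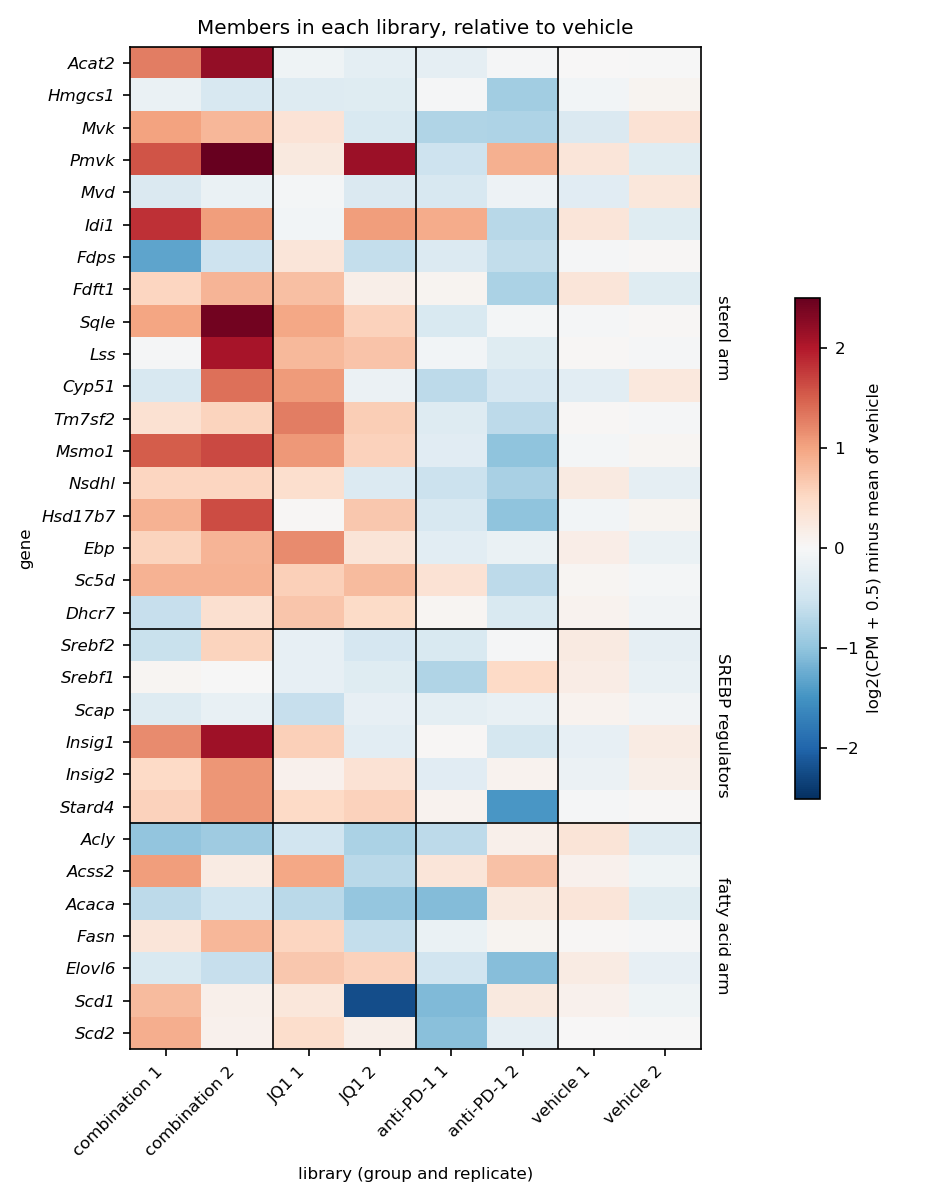
Level of the 31 members in each of 8 libraries as log2(CPM + 0.5) minus the mean of the vehicle libraries, with rows in pathway order and columns in the order combination, JQ1, anti-PD-1, vehicle. Red is higher and blue lower than vehicle. The sterol rows are mostly red in the combination and blue in anti-PD-1, with a median of 0.55 and 0.86 in the combination libraries and -0.31 and -0.63 in the anti-PD-1 libraries.

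Among the regulators, Insig1 differed and the SREBP genes did not pass the test. Insig1, which retains SREBP in the endoplasmic reticulum and is itself an SREBP target (chromosome 5, 28071363 to 28078662, plus strand), was at 13.5 and 26.5 CPM in the combination, 8.81 and 4.62 CPM in JQ1, 5.80 and 4.04 CPM in anti-PD-1, and 4.89 and 6.598 CPM in vehicle. Both combination libraries lay above the other 6, whose groups overlapped. Insig1 rose by 2.04 ± 0.48 on the log2 scale in the combination against the antibody alone (edgeR adjusted p = 0.0453), and its 1.82 ± 0.47 against vehicle just missed (edgeR adjusted p = 0.0523). Insig2, its sister protein, had 12.2 and 18.8 CPM in the combination, against 7.64 and 9.47 CPM in vehicle, a log2 fold change of 0.87 ± 0.37 that was not called (edgeR adjusted p = 0.160). Stard4, a carrier of sterol between membranes, averaged 10.5 ± 2.90 CPM in the combination, 8.21 ± 0.343 CPM in JQ1, 3.81 ± 3.003 CPM in anti-PD-1 and 5.52 ± 0.142 CPM in vehicle (SD, n = 2 each).

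Srebf2, the SREBP gene that chiefly drives sterol synthesis, was at 92.2 and 199.9 CPM in the combination, 118.4 and 101.2 CPM in JQ1, 104.7 and 133.3 CPM in anti-PD-1, and 158.6 and 116.5 CPM in vehicle. The combination libraries spanned all the others, and its log2 fold change was 0.09 ± 0.36 (edgeR adjusted p = 0.884). Srebf1, which chiefly drives fatty acid synthesis, was at 146.5 and 141.4 CPM in the combination, 123.2 and 114.9 CPM in JQ1, 84.1 and 200.6 CPM in anti-PD-1, and 161.7 and 125.4 CPM in vehicle. Its log2 fold change was 0.0040 ± 0.36 in the combination and -0.27 ± 0.36 in JQ1 against vehicle, neither called. Scap, the SREBP escort, averaged between 30.7 and 40.02 CPM in the 4 groups. SREBP activity depends on cleavage of the protein, which mRNA levels do not measure.

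**Figure D4:**
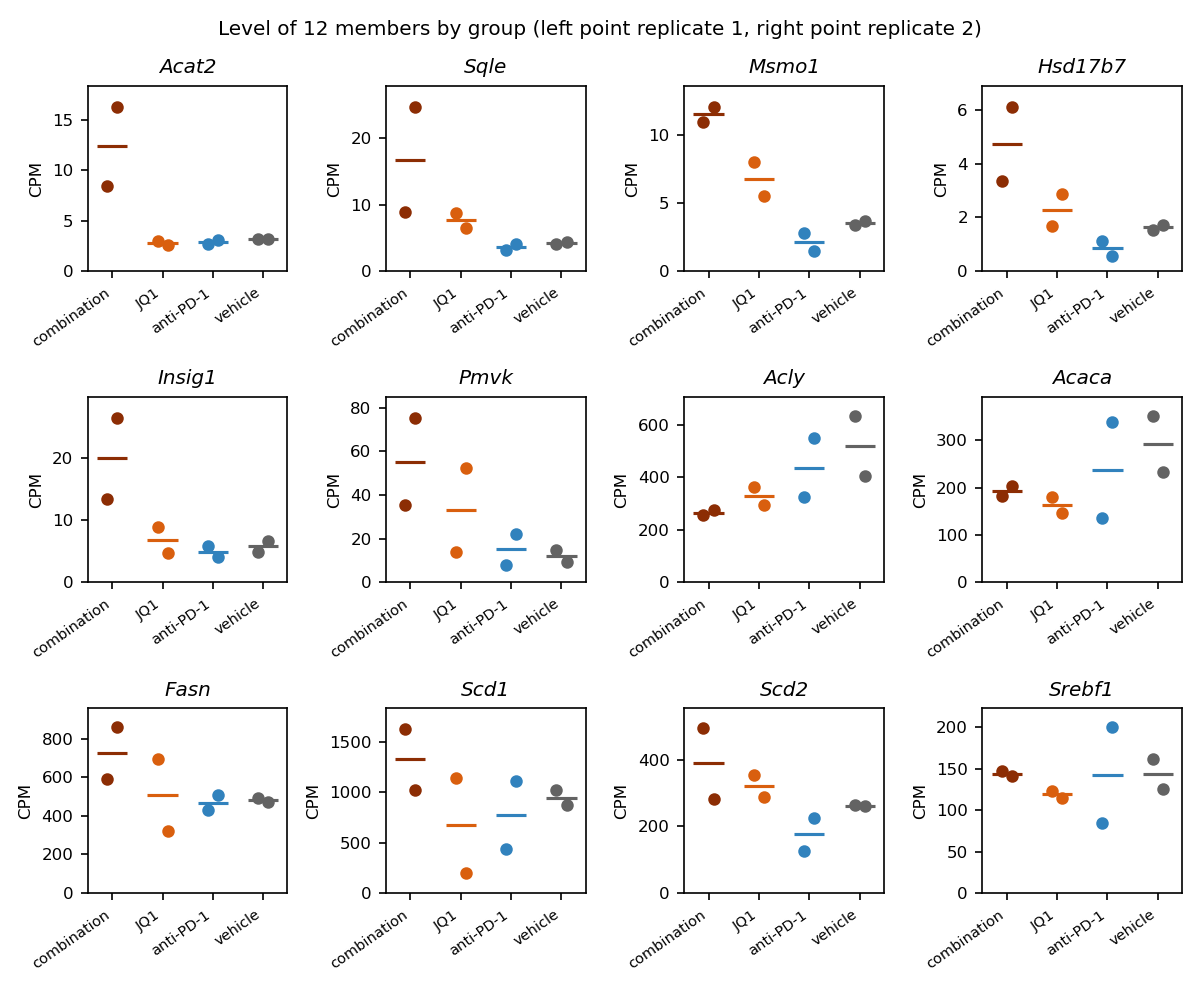
CPM (vertical axes, from 0) of 12 members in the combination, JQ1, anti-PD-1 and vehicle groups, with a point per library and a line at the group mean (n = 2). Acat2 and Insig1 stand apart in the combination libraries only, Sqle and Msmo1 are higher in all 4 libraries with JQ1, and Scd1 and Fasn spread within groups.

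No gene of the fatty acid arm was called in any comparison by the edgeR test with its filter, and its members went different ways. DESeq2 called Acly lower over both backgrounds of JQ1 and in the combination against vehicle, and Scd2 higher in the combination against the antibody alone. Without the filter on low counts edgeR made these calls too, and over both backgrounds it also called Acaca lower and Scd2 higher. Acly was at 254.2 and 274.1 CPM in the combination, 361.9 and 294.3 CPM in JQ1, 323.8 and 550.3 CPM in anti-PD-1, and 635 and 404.7 CPM in vehicle. Both combination and both JQ1 libraries lay below both vehicle libraries. Its log2 fold change was -0.98 ± 0.32 in the combination against vehicle (edgeR adjusted p = 0.0925) and -0.69 ± 0.23 for JQ1 over both backgrounds (edgeR adjusted p = 0.0756). Acaca, the acetyl-CoA carboxylase that makes malonyl-CoA, was at 182.7 and 203.7 CPM in the combination, 180.3 and 146.7 CPM in JQ1, 135.3 and 338.1 CPM in anti-PD-1, and 352.0 and 233.9 CPM in vehicle. It too was below vehicle in all 4 libraries with JQ1, with a log2 fold change of -0.84 ± 0.40 in JQ1 against vehicle (edgeR adjusted p = 0.505).

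Fasn was at 590.9 and 861 CPM in the combination, 696.3 and 320.8 CPM in JQ1, 430.4 and 506.2 CPM in anti-PD-1, and 491.7 and 472.9 CPM in vehicle. Both combination libraries lay above both vehicle libraries, and the JQ1 libraries lay on either side of them. The log2 fold change was 0.59 ± 0.35 in the combination against vehicle (edgeR adjusted p = 0.302). Fasn and Acly, which act in series, thus lay on opposite sides of vehicle in the combination. The ratio of Fasn to Acly counts was 2.32 and 3.14 in the combination, 1.92 and 1.09 in JQ1, 1.33 and 0.920 in anti-PD-1, and 0.775 and 1.17 in vehicle. This ratio was noticed in the data and was not tested.

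Scd1 was at 1631 and 1027 CPM in the combination, 1145 and 201.7 CPM in JQ1, 440.6 and 1118 CPM in anti-PD-1, and 1020 and 872.6 CPM in vehicle. JQ1 replicate 2 and anti-PD-1 replicate 1 were low and the other 6 libraries were at or above 872.6 CPM. Its log2 fold change in JQ1 against vehicle was -0.49 ± 0.76, and it was 0.26 without JQ1 replicate 2 and -2.24 without JQ1 replicate 1. Scd2, a second desaturase and a close relative in sequence, was at 496.2 and 283.8 CPM in the combination, 355.0 and 290.0 CPM in JQ1, 126.5 and 226 CPM in anti-PD-1, and 265.1 and 260.6 CPM in vehicle. All libraries with JQ1 were above all without it, and the log2 fold change over both backgrounds was 0.72 ± 0.24 (edgeR adjusted p = 0.0814). The ratio of Scd1 to Scd2 counts was 0.696 in JQ1 replicate 2 and between 3.23 and 4.96 in the other 7 libraries. No source at hand states how reads shared by the desaturase copies were assigned. Alveolar type 2 markers summed to 10430 ± 1537 CPM in the combination, 7524 ± 1309 CPM in JQ1, 9202 ± 1106 CPM in anti-PD-1 and 10412 ± 2646 CPM in vehicle (SD, n = 2 each). These sums mix genes that went different ways. In the combination against vehicle 7 of 13 were positive, 1 rose and 2 fell, beside 2.44% and 2.36% of all tested genes. The part of these markers in the members' levels was not tested.

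Elovl6, which lengthens palmitate, was at 4.21 and 3.63 CPM in the combination, 9.23 and 8.63 CPM in JQ1, 3.91 and 2.44 CPM in anti-PD-1, and 6.57 and 4.82 CPM in vehicle. JQ1 alone was highest and the combination lay below vehicle, the reverse of most sterol genes. Its log2 fold change was -1.20 ± 0.44 in the combination against JQ1 (edgeR adjusted p = 0.270) and -0.83 ± 0.41 in the antibody against vehicle (edgeR adjusted p = 1). Acss2, which makes acetyl-CoA from acetate, ranged from 28.7 CPM in JQ1 replicate 2 to 95.1 CPM in combination replicate 1, and both combination and both antibody libraries exceeded both vehicle libraries, at 49.6 and 42.8 CPM.

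Neighbouring pathways were measured by lists of genes outside the 31. Among 12 genes of sterol uptake, transport and storage, 3 rose in the combination against vehicle and none fell, beside 2.44% and 2.36% of all tested genes. The median of the 12 was 0.05, with 6 positive. These were Npc1 and Npc2, which export cholesterol from lysosomes, with log2 fold changes of 1.47 ± 0.31 and 1.37 ± 0.27 (edgeR adjusted p = 0.0327 and 0.0321), and Scarb1, a receptor for high-density lipoprotein, with 1.39 ± 0.34 (edgeR adjusted p = 0.0468). Npc2 was at 763 and 758 CPM in the combination, 552 and 467 CPM in JQ1, 241 and 333 CPM in anti-PD-1, and 338 and 251 CPM in vehicle. Its groups with JQ1 lay above those without it. For JQ1 over both backgrounds, Npc2, Scarb1 and Lipa, the lysosomal lipase that frees cholesterol from its esters, rose, beside 4.22% of all tested genes, and the median of the 12 was -0.21.

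Of 12 other sterol and isoprenoid enzymes, Lbr, a second sterol C14 reductase, rose by 1.01 ± 0.24 and Fntb, a farnesyltransferase subunit, fell by 0.91 for JQ1 over both backgrounds (edgeR adjusted p = 0.0349 and 0.0401). Of 10 genes of SREBP processing and degradation, Mbtps2, the site-2 protease that frees SREBP, fell by 0.86 in the same comparison (edgeR adjusted p = 0.0437), and none rose. Of 22 tested genes of other fatty acid and lipid synthesis, Elovl5, an elongase of unsaturated fatty acids, and Acsl1, which activates fatty acids, rose by 1.25 ± 0.21 and 1.01 ± 0.26 (edgeR adjusted p = 0.0176 and 0.0436). These few calls per list stand beside 4.22% of all tested genes that rose and 4.05% that fell in this comparison. None of the 9 tested genes of LXR and sterol efflux was called in any comparison.

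Cell type markers moved with the groups beside these values. Cycling cell markers summed to 25.7 ± 12.6 CPM in the combination, 97.4 ± 56.5 CPM in JQ1, 103 ± 41.2 CPM in anti-PD-1 and 112 ± 10.7 CPM in vehicle (SD, n = 2 each). Airway markers summed to 488 ± 212 CPM in the combination, 341 ± 214 CPM in JQ1, 99.5 ± 44.2 CPM in anti-PD-1 and 38.6 ± 23.1 CPM in vehicle. Scgb1a1 or Muc5b was the largest part of the airway sum in every library except vehicle replicate 2. Endothelial markers summed to 281 ± 31.3 CPM in the combination, 224 ± 15.3 CPM in JQ1, 197 ± 1.17 CPM in anti-PD-1 and 142 ± 38.6 CPM in vehicle. In the combination against vehicle the log2 fold change was negative for 11 of 12 tested cycling markers and positive for 8 of 9 airway and 10 of 10 endothelial markers. Fibroblast markers summed to 455 ± 5.74 CPM in the combination, 705 ± 116 CPM in JQ1, 1322 ± 467 CPM in anti-PD-1 and 1155 ± 168 CPM in vehicle. Col1a1 was the largest part of this sum in every library. By gene the list was split, with 4 of 8 positive and a median of 0.24. Of these 8, 2 rose and 1 fell, beside 2.44% and 2.36% of all tested genes. Macrophage markers summed to 228 ± 80.0 CPM in the combination, 146 ± 76.4 CPM in JQ1, 273 ± 30.1 CPM in anti-PD-1 and 272 ± 136 CPM in vehicle. By gene, 6 of 8 were positive in the combination against vehicle, with a median of 0.21 and none called. The part of these cell types in the members' levels was not tested.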

How the data were processed

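RNA was isolated from frozen nodules and captured with coding-region probes, per the labels' protocols. The authors deposited whole-number read counts per gene symbol, and a normalized signal that equals the counts divided by 1 factor per library. Between 99.99% and 100% of the normalized values came out whole within 0.05 reads, and the main test, run on these reads after seeing the data, gave the same 676 calls in the combination against vehicle. The submitters' processing notes list the tools STAR, featureCounts, DESeq2 and bcl2fastq and the builds GRCm38 and mm10. Roles, versions, the annotation and any use of strand are not stated there.

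Counts were fitted with the quasi-likelihood test of edgeR 4.0.16 in R 4.3.3, with TMM factors, filterByExpr, 1 mean per group over 8 libraries, 4 residual degrees of freedom and Benjamini-Hochberg adjustment over 14085 genes at 0.05. The common biological coefficient of variation was 0.332. The 7 contrasts are those reported, and only called genes are said to have risen or fallen. SE belongs to a log2 fold change and SD to CPM, counts scaled by library total and TMM factor. Replicates are numbered in accession order. No library was a copy of another, with chi-square per degree of freedom of at least 18.3. Sequences and windows are from RefSeq, positions from GENCODE on GRCm38.

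Members, lists, tests and alternatives were chosen with earlier results of these data known. Values in every library are given for members called in any contrast, for the 4 (or 2) smallest p of an arm, and for Hmgcs1, Sqle, Srebf1, Srebf2, Insig1, Fasn, Acaca and Scd1. Alternatives were upper-quartile and RLE factors, dropping the filter, DESeq2 1.42.0, limma 3.58.1 voom, only the compared libraries, removal of ribosomal RNA symbols, a sex term, and leaving out each library.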

Additional observations from a re-analysis of the deposited data

How the results depend on the processing

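Over all alternatives no called member changed sign. In JQ1 against vehicle, 1 member was called with no filter and 0 in every fit that left out a library. Antibody against vehicle and the interaction gave 0 in every setting run. In the combination against vehicle, 4 were called with upper-quartile factors, 7 with no filter, 6 with DESeq2, 4 with voom, 1 with only the libraries compared, 0 with a sex term, and 0 to 4 leaving out a library. Against JQ1 these were 2 with no filter, 1 with DESeq2 and 0 to 1. Against the antibody they were 8 with no filter, 8 with DESeq2, 0 with only the libraries compared, 1 with a sex term, and 0 to 6. For JQ1 over both backgrounds they were 4 with upper-quartile factors, 11 with no filter, 7 with DESeq2, and 0 to 7. Over all genes DESeq2 called 1632 in the combination against vehicle, against 676, so its larger count of members came with more calls everywhere. For most other settings, leaving out a library included, the share called over all genes is not given here. These counts therefore describe the settings and are not results about the members. The causes were not tested.

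Leaving out a library, the sterol median ranged from 0.44 to 0.77 in JQ1 (0.79 with a sex term), -0.71 to -0.31 in the antibody and 0.58 to 1.02 in the combination against vehicle, 0.10 to 0.57 against JQ1, 1.10 to 1.65 against the antibody, 0.80 to 1.05 over both backgrounds, and 0.31 to 0.97 in the interaction (0.76 with voom). The fatty acid median ranged in the same order from -0.70 to 0.42, -0.68 to 0.08, 0.10 to 0.56 (-0.24 with a sex term), -0.16 to 0.41, 0.18 to 0.50, -0.30 to 0.51 and 0.025 to 0.81. Where a group was left with 1 library, that library was assumed to vary like the others. No paired analysis was possible because the replicate numbers only follow accession order. Sterol enzymes had a median of 13.5 counts in combination replicate 1, which limits their precision there.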

Other observations

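Sterol enzymes were measured on few reads in this capture library set. In anti-PD-1 replicate 2 the lowest member had 1 count, and in combination replicate 1 the lowest had 4. Summed sterol counts were 5.30% and 10.1% of fatty acid counts in the combination libraries, 5.91% and 13.6% in JQ1, 7.97% and 3.52% in anti-PD-1, and 4.84% and 5.96% in vehicle. The ratio of Insig1 to Insig2 counts was 1.10 and 1.41 in the combination libraries, 0.955 and 0.417 in JQ1, 0.838 and 0.448 in anti-PD-1, and 0.640 and 0.697 in vehicle. Acss1, the mitochondrial relative of Acss2, was at 13.9 and 26.9 CPM in the combination libraries and 4.73 and 5.62 CPM in vehicle. These values were noticed in the data and were not tested.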
